A study of Homo sapiens with 8 samples.

Results

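This account describes the messenger RNAs of the F-box ubiquitin ligases in AGS, an established line of human gastric adenocarcinoma cells, after exposure to podofilox. The genes were chosen by name: those whose symbol in the platform annotation starts with FBXO, FBXL or FBXW and a digit, together with SKP1, SKP2, CUL1, RBX1, BTRC and CCNF. This gave 69 genes of the 18132 measured (35 FBXO, 17 FBXL, 11 FBXW and 6 others), and 4 of the 69 are not protein-coding genes (the transcribed pseudogenes FBXL21P, FBXL9P and FBXW4P1 and the antisense RNA FBXW7-AS1). Family members without a single-gene probe set in the table used, such as FBXL2, FBXO9 and FBXW10, were not analysed here. A measured value entered the choice only through the mean signal over the 8 arrays, which picked the brightest probe set (the group of short probes that reads 1 transcript) to stand for each gene. Signals of different probe sets are therefore not compared as amounts of mRNA. The group of genes was also proposed because the fall of FBXO30 was already known, so FBXO30 is described with no test. Counts that cover FBXO30 include its call and support nothing through it. Of the counts over all 69 genes, those of changed genes and of genes that fell are also given without it.

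The podofilox group was 4 arrays of AGS cells kept for 72 hours with 3.4 nM podofilox, and the control group was 4 arrays of AGS cells that the labels call control. Podofilox, also called podophyllotoxin, is a drug from plants that attaches to tubulin and keeps microtubules from forming. The labels do not say whether the controls received solvent or whether replicates came from different cultures. The p-values therefore weigh a difference only against the spread of these arrays within groups, and that spread may be technical. All cells come from 1 line, and each array was hybridised with biotin-labelled cRNA of 1 sample.

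F-box proteins are the interchangeable receptors of the SCF ubiquitin ligases. In these complexes the cullin CUL1 holds the RING protein RBX1, which brings in a ubiquitin-conjugating enzyme, at one end, and the adaptor SKP1 with an F-box protein at the other. FBXW receptors bind their substrates through WD40 repeats, often at a phosphorylated motif, FBXL receptors use leucine-rich repeats, and FBXO receptors carry other domains or none that is known. The complexes mark cell cycle regulators, transcription factors and signalling proteins for the proteasome, and the attachment of the small protein NEDD8 to the cullin switches them on.

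Signals are log2 values as deposited, a difference is podofilox minus control, and means are given with the SD of 4 arrays. Differences were tested with limma across all genes, and the words rose and fell are kept for genes with a Benjamini-Hochberg adjusted p under 0.05. Further probe sets of a gene were tested over all single-gene probe sets. Arrays of 1 group correlated at 0.997 to 0.999 across genes. The 24 poly-A spike-in probe sets averaged 7.45 to 7.64 on podofilox arrays and 7.31 to 7.41 on control arrays. The 18S ribosomal RNA probe sets averaged 12.01, 12.06, 12.42 and 12.41 on podofilox arrays 1 to 4 and 12.86, 12.92, 12.59 and 12.59 on control arrays 1 to 4. The part of these shifts in the results below was not tested. Epithelial markers were bright, with means of 7.47 (CDH1) to 13.32 (KRT19) over 8 genes, 1 of which rose and 1 fell. Among markers of other cells, 1 of 10 for fibroblasts fell (PDGFRA), 1 of 9 for immune cells rose (CD68) and 1 of 8 for endothelium fell (CDH5). Bright signal was not confined to epithelial markers. Means ran from 3.21 to 8.64 (PDGFRA) for fibroblasts and from 3.11 to 13.61 (LYZ) for immune cells. For endothelium they ran from 3.65 to 6.94 (KDR). The log2 of the summed fibroblast signals was 9.14 to 9.27 on podofilox arrays and 9.38 to 9.45 on control arrays, and its part in the results was not tested. PDGFRA, the brightest of the 10, weighs most in this sum. The median difference of the 10 fibroblast markers was 0.0003.

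On the brightest probe set of each gene, podofilox cells had less mRNA for CUL1, the scaffold of the complex, and for 9 receptors. Of these, FBXO30, FBXL6 and FBXO4 changed most. More mRNA was read for 5 receptors, among them FBXW7 and FBXO22. The further probe sets of FBXO4 (0.14 and -0.03) and FBXL17 (all higher) did not pass the test. FBXO28 is not counted as changed, although its 3 further probe sets fell. SKP2 rose on the brightest probe set, by which it is counted here, and fell on its other one. Of the 69 genes, 16 changed (23.2%), against 21.0% of all genes. Of these, 6 rose (8.70%), against 8.55% of all genes, and 10 fell (14.5%), against 12.5% of all genes. The groups did not overlap for 16 of the 69 (23.2%), against 26.2% of all genes, with podofilox above in 6 (10.6% of all genes) and below in 10 (15.6% of all genes). At an unadjusted p under 0.05 there were 26 (37.7%), against 33.3% of all genes. In RNA from whole cultures, fewer cells that express a gene and less of its RNA per cell cannot be told apart. The share of F-box ligase genes that changed was thus near that of all genes, and without FBXO30 it was 22.1% (15 of 68), with 9 that fell (13.2%). Their median difference was 0.01, as for all genes (0.01), and the median size of the difference was 0.10, against 0.09 for all genes. After quantile normalization once more, 9 rose and 9 fell, and 1776 of all genes rose and 2109 fell, against 1550 and 2260 without it.

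**Figure D1:**
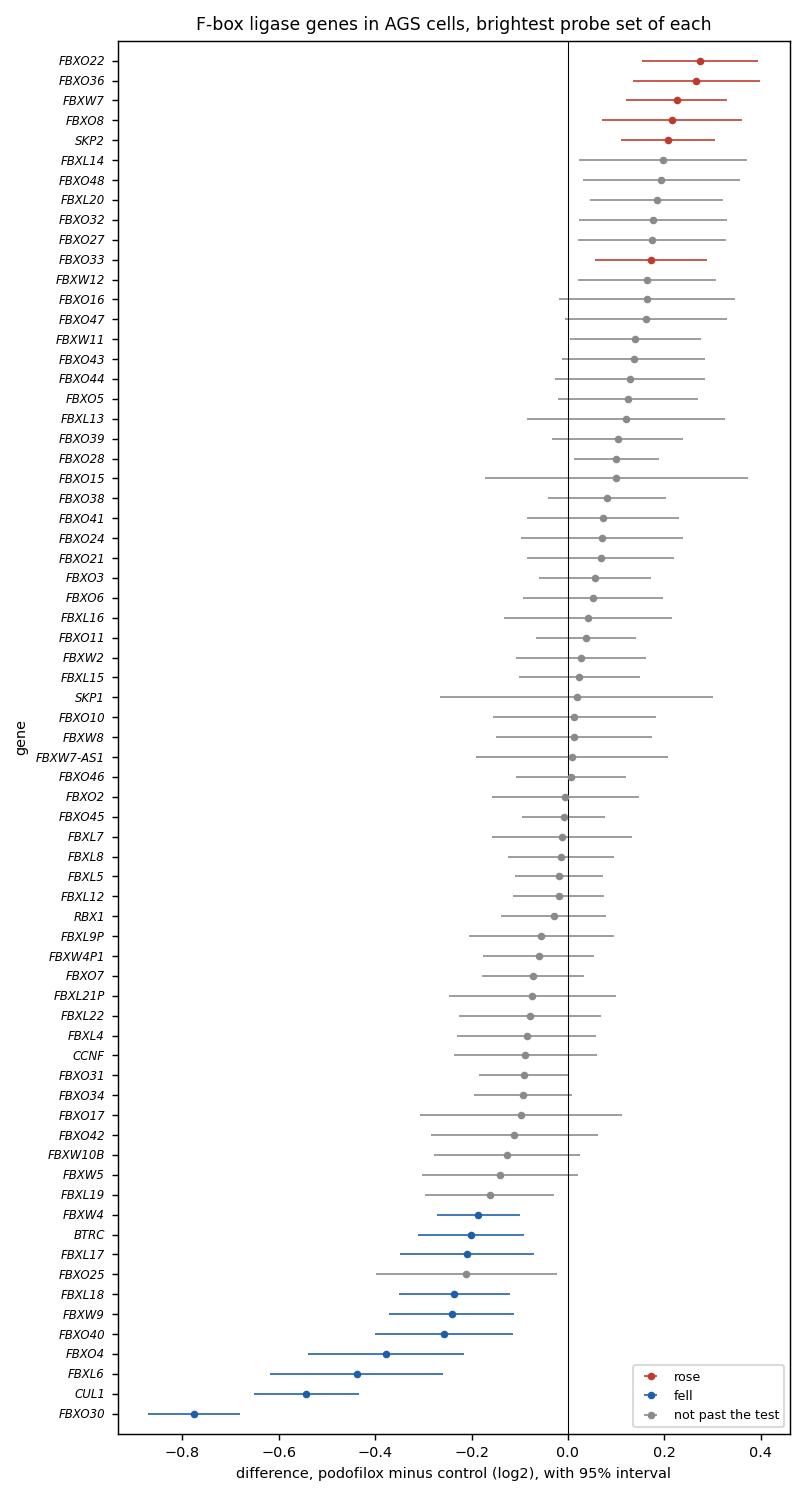
Difference (podofilox minus control, log2) of each of the 69 genes on its brightest probe set, with bars for the 95% interval, coloured by the limma call. Most differences lie within 0.25 of 0, whereas FBXO30 (-0.78) and CUL1 (-0.54) lie apart at the lower end.

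Calls were more frequent among brighter genes. Of the 42 F-box ligase genes above the median signal of all genes, 15 changed (35.7%), against 33.9% of all genes above that median. Of the 27 at or below it, FBXO40 alone changed (3.70%), against 8.16% of all genes at or below it. The lowest mean signal, 3.40, belonged to FBXW7-AS1 and the highest, 11.51, to RBX1, values that reflect the probes as well as the transcripts.

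**Figure D2:**
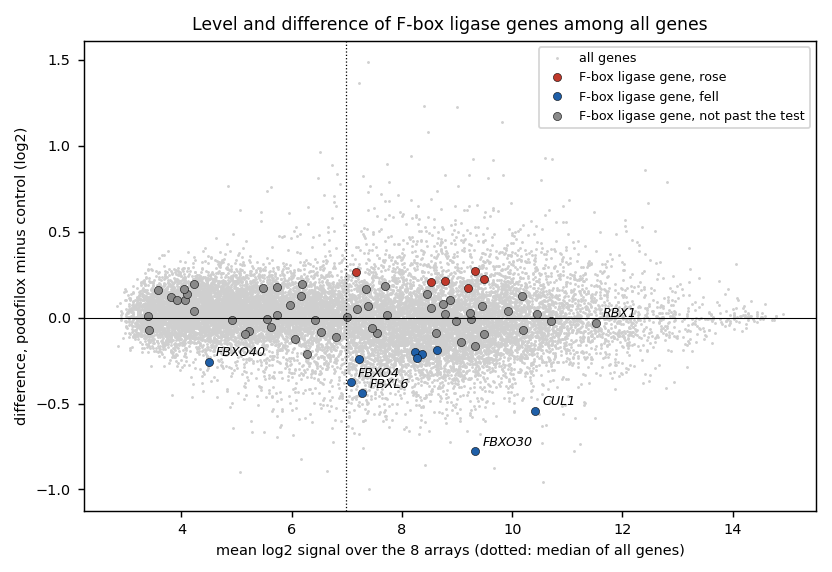
Mean log2 signal over the 8 arrays against the difference (podofilox minus control, log2), with all genes in grey and the 69 F-box ligase genes as larger points. The coloured points sit to the right of the dotted median of all genes (6.99), except FBXO40.

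The shared subunits did not move together. CUL1, which holds both ends of the complex, had 10.17, 10.23, 10.05 and 10.15 on the podofilox arrays and 10.64, 10.74, 10.70 and 10.69 on the control arrays. All podofilox values lay below all control values. The difference was -0.54 (SE 0.05, 95% interval -0.65 to -0.43, adjusted p = 9.66e-05), or 1.46-fold lower. Its other probe set fell too, by 0.34 (SE 0.08, adjusted p = 0.0169). RBX1, the RING subunit, had 11.48, 11.51, 11.53 and 11.47 with podofilox and 11.55, 11.63, 11.47 and 11.46 in control cells. These groups overlapped, and the difference of -0.03 (95% interval -0.14 to 0.08) did not pass the test.

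SKP1, the adaptor between CUL1 and the F-box receptor, stood out for its spread. Its brightest probe set read 10.12, 10.35, 10.74 and 10.61 on podofilox arrays 1 to 4 and 10.51, 10.60, 10.26 and 10.37 on control arrays 1 to 4. Podofilox was thus lower within arrays 1 and 2 (-0.32) and higher within arrays 3 and 4 (0.36), and over all 8 arrays the difference was 0.02 (SE 0.13, 95% interval -0.26 to 0.30). No other F-box ligase gene had a gap this wide between the 2 pairs of arrays, the next being FBXO48 (0.02 and 0.36). The 18S probe sets given above were ordered by the same pairs within each group, and their part in the SKP1 values was not tested. The suffix _x_at of this SKP1 probe set marks probes that may cross-hybridise. A further probe set of SKP1 read 7.67, 7.66, 7.59 and 7.59 with podofilox and 7.58, 7.59, 7.54 and 7.54 in control cells, and its difference of 0.06 missed the threshold.

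FBXO30 had the lowest difference of the 69 genes. It is known in mouse muscle as MUSA1, a receptor that promotes loss of muscle mass and is held down there by bone morphogenetic protein signalling. Its values were 8.94, 8.95, 9.01 and 8.88 with podofilox and 9.74, 9.71, 9.69 and 9.74 in control cells, with means of 8.94 ± 0.06 and 9.72 ± 0.03 (SD, n = 4 each). The difference was -0.78 (SE 0.04), or 1.71-fold lower. Its fall was known when the genes were chosen, so these values describe FBXO30 and are no independent evidence. The gene has only 1 probe set, so no second reading of it exists here. FBXO40, a receptor for the insulin signalling protein IRS1 in mouse muscle, was dim, at 4.37 ± 0.10 with podofilox and 4.63 ± 0.10 in control cells (SD, n = 4 each). It fell by 0.26 (SE 0.06, adjusted p = 0.0181), a call that ended without control replicate 4 (adjusted p = 0.0543) and with the replicate number as a block (adjusted p = 0.0698).

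**Figure D3:**
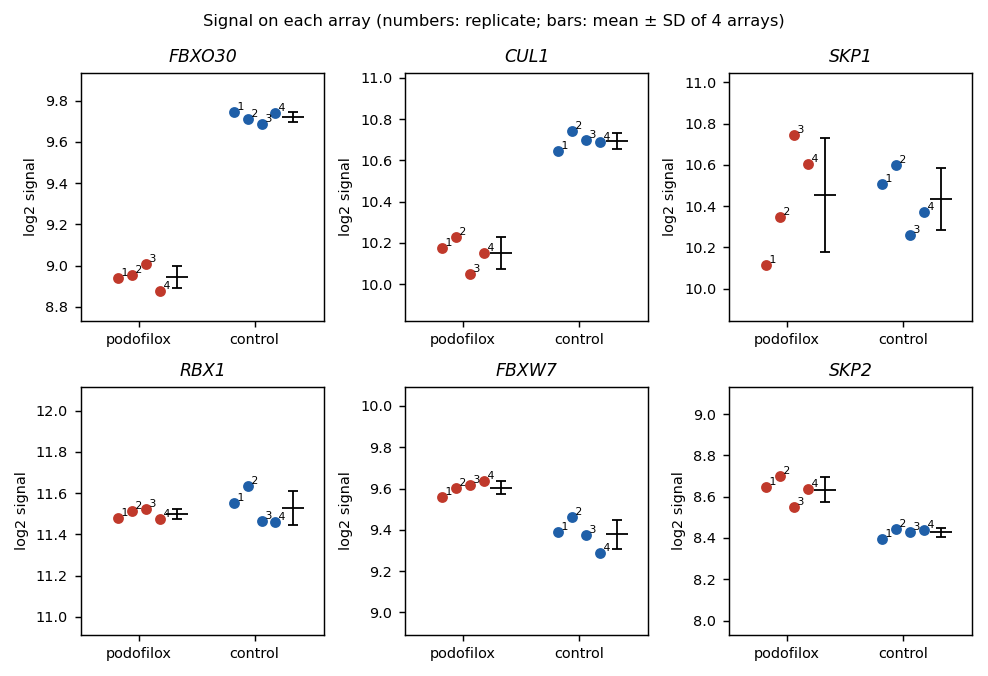
Log2 signal of 6 genes on every array, podofilox in red on the left and control in blue on the right, numbered by replicate, with the mean ± SD of 4 arrays in black and all panels spanning the same range. FBXO30 and CUL1 are lower on every podofilox array, FBXW7 and SKP2 higher, and the SKP1 arrays 1 and 2 run against arrays 3 and 4.

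Among the 10 WD40 receptors, 1 rose (10%, against 8.55% of all genes) and 3 fell (30%, against 12.5%). FBXW7, which marks cyclin E, MYC, JUN, NOTCH1 and MCL1 for destruction, had 9.56, 9.60, 9.62 and 9.64 with podofilox and 9.39, 9.46, 9.37 and 9.29 in control cells. The groups did not overlap, and FBXW7 rose by 0.23 (SE 0.05, 95% interval 0.12 to 0.33, adjusted p = 0.00731). The brightest FBXW7 probe set is of the _x_at kind. A second FBXW7 probe set rose by 0.24 and the remaining one differed by 0.10 without passing the test. BTRC, the beta-TrCP1 receptor for beta-catenin and the NF-kB inhibitor IkB, had 8.21, 8.04, 8.17 and 8.15 with podofilox and 8.30, 8.37, 8.40 and 8.32 in control cells. It fell by 0.20 (SE 0.05, adjusted p = 0.0165), and its 3 further probe sets were all lower, with differences from -0.17 to -0.09, 1 of them past the test. BTRC lost its call with the replicate number as a block (adjusted p = 0.0537) and on its brightest _a_at probe set (-0.09, adjusted p = 0.266). FBXW11, the beta-TrCP2 receptor with overlapping substrates, differed by 0.14 (95% interval 0.00 to 0.28, adjusted p = 0.140), in the other direction from BTRC, and its 3 further probe sets were higher by 0.07 to 0.23 without passing the test. FBXW11 passed the test with the mean of all its probe sets (0.16, adjusted p = 0.0209). It also passed after quantile normalization once more, with array weights and without podofilox replicate 3, but under no other alternative. The difference between the 2 beta-TrCP genes was not tested.

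FBXW4, known as dactylin from limb development, had 8.57, 8.53, 8.54 and 8.51 with podofilox and 8.73, 8.70, 8.76 and 8.71 in control cells, a fall of 0.19 (SE 0.04, adjusted p = 0.00702). Its arrays varied little, with an SD of 0.02 and 0.03. FBXW9 fell by 0.24 (SE 0.06, adjusted p = 0.0154), at 7.10 ± 0.06 with podofilox and 7.34 ± 0.10 in control cells (SD, n = 4 each). Both are read by 1 probe set.

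Among the 16 leucine-rich repeat receptors, 1 rose (6.25%, against 8.55% of all genes) and 3 fell (18.8%, against 12.5%). The rise is that of SKP2, whose probe sets are opposed. FBXL6 had 7.06, 7.15, 6.88 and 7.16 with podofilox and 7.40, 7.39, 7.67 and 7.55 in control cells. It fell by 0.44 (SE 0.08, adjusted p = 0.00391), the largest change of this class, by 0.29 within arrays 1 and 2 and by 0.59 within arrays 3 and 4. FBXL18 fell by 0.24 (SE 0.05, adjusted p = 0.00966), at 8.15 ± 0.06 with podofilox and 8.38 ± 0.07 in control cells (SD, n = 4 each). Its probe set is an _s_at one. Its other probe sets were lower by less (-0.13 and -0.06), and the adjusted p was 0.575 once _x_at and _s_at probe sets were left out. FBXL17, which takes part in quality control of BTB-domain proteins, differed by -0.21 (SE 0.06, adjusted p = 0.0378), but its 3 further probe sets, all dim, were higher (0.03, 0.03 and 0.22) without passing the test. FBXL17 missed the threshold whenever 1 of 7 arrays was dropped (every array but podofilox replicate 1), with an adjusted p of up to 0.0993, and with the replicate number as a block (adjusted p = 0.0879). FBXL5, the iron-sensing receptor that removes iron regulatory proteins, had 10.69, 10.74, 10.63 and 10.73 with podofilox and 10.70, 10.74, 10.72 and 10.71 in control cells. Its groups overlapped, with a difference of -0.02 (95% interval -0.11 to 0.07).

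SKP2, the leucine-rich repeat receptor for the cell cycle inhibitor p27, gave opposite readings on its 2 probe sets, both past the test. On the brightest it had 8.65, 8.70, 8.55 and 8.64 with podofilox and 8.40, 8.44, 8.43 and 8.44 in control cells, a rise of 0.21 (SE 0.04, adjusted p = 0.00802). On the other it had 6.33, 6.36, 6.37 and 6.32 with podofilox and 6.79, 6.87, 6.68 and 6.77 in control cells. This is a difference of -0.43 (SE 0.05, adjusted p = 0.000353 over all single-gene probe sets). The groups did not overlap on either probe set, and both are of the _a_at kind, assigned to SKP2 alone. Their mean differed by -0.11 (adjusted p = 0.0518). No direction for SKP2 as a gene can be read from these values.

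Among the 36 remaining receptors, 4 rose (11.1%, against 8.55% of all genes) and 3 fell (8.33%, against 12.5%), FBXO30 included. FBXO22, which targets KDM4 histone demethylases, had 9.55, 9.52, 9.35 and 9.42 with podofilox and 9.15, 9.25, 9.14 and 9.20 in control cells. It rose by 0.27 (SE 0.05, adjusted p = 0.00565), and its 4 further probe sets were all higher, by 0.10 to 0.19, without passing the test. FBXO36 rose by 0.27 (SE 0.06, adjusted p = 0.0103), at 7.30 ± 0.12 with podofilox and 7.04 ± 0.02 in control cells (SD, n = 4 each), and its other probe set was higher by 0.21. FBXO4, which has been linked to the turnover of cyclin D1, had 6.97, 6.86, 6.74 and 6.96 with podofilox and 7.24, 7.41, 7.11 and 7.28 in control cells. It fell by 0.38 (SE 0.07, adjusted p = 0.00496), but its 2 dim further probe sets differed by 0.14 and -0.03, and the mean of the 3 did not pass the test (-0.09, adjusted p = 0.199).

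A pair of rises lay close to the threshold. FBXO8, which also carries a Sec7 domain, rose by 0.22 (SE 0.07, adjusted p = 0.0407), at 8.88 ± 0.11 with podofilox and 8.67 ± 0.08 in control cells (SD, n = 4 each). It missed the threshold when any of 5 arrays was dropped (podofilox replicates 2 and 3 and control replicates 1, 3 and 4, adjusted p up to 0.115), and with the array pair as a block (adjusted p = 0.0509). Only an _s_at probe set reads FBXO8. FBXO33 rose by 0.17 (SE 0.05, adjusted p = 0.0410), and its second probe set by 0.27. The brightest probe set missed the threshold when any of podofilox replicates 1, 2 and 4 or control replicates 1, 3 and 4 was dropped (adjusted p up to 0.109), and with the replicate number as a block (adjusted p = 0.0627). Just outside the threshold lay FBXL20 (0.18, adjusted p = 0.0611), FBXL19 (-0.16, adjusted p = 0.0858), which binds CpG islands, and FBXO48 (0.19, adjusted p = 0.0907).

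Of the receptors named for the cell cycle, CCNF (cyclin F, which removes CP110 and RRM2) had 8.72, 8.62, 8.47 and 8.45 with podofilox and 8.62, 8.74, 8.68 and 8.58 in control cells. Its groups overlapped on this _x_at probe set, with a difference of -0.09 (95% interval -0.24 to 0.06). Its other probe set fell by 0.20 (SE 0.05, adjusted p = 0.0193). FBXO5 (EMI1, an inhibitor of the anaphase-promoting complex) had 10.10, 10.18, 10.41 and 10.23 with podofilox and 10.15, 10.15, 10.04 and 10.09 in control cells, and differed by 0.12 (95% interval -0.02 to 0.27), short of the threshold.

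How far the probe sets of a gene went together varied. Of the 16 changed genes, 5 had 1 probe set and 11 had more, and in 8 of the 11 every further probe set had the same sign. Of these 11, 4 had a further probe set past the test in the same direction (CUL1, BTRC, FBXW7 and FBXO33) and 1 in the opposite direction (SKP2). Of 31 genes with several probe sets that did not pass the test on the brightest, 6 had a further probe set that did. These 6 were CCNF, FBXO25, FBXO28, FBXO45, FBXW2 and FBXW8, and they are described because of these values.

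FBXO28, reported to attach ubiquitin to MYC without sending it to the proteasome, had probe sets on both sides of 0. The brightest read 8.91, 8.89, 8.93 and 8.94 with podofilox and 8.79, 8.78, 8.87 and 8.83 in control cells, a difference of 0.10 (adjusted p = 0.105), which passed the test after quantile normalization once more (0.14, adjusted p = 0.0476). The 3 others fell by 0.35, 0.39 and 0.41 (SE 0.07, 0.06 and 0.05). On the last of these, FBXO28 had 6.78, 6.80, 6.83 and 6.75 with podofilox and 7.23, 7.26, 7.19 and 7.12 in control cells. The groups did not overlap on any of the 4 probe sets, and with the mean of its probe sets FBXO28 fell by 0.26 (adjusted p = 0.00098).

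FBXW8, a receptor that pairs with the cullin CUL7, differed by 0.01 on its brightest probe set. Its dimmest read 5.45, 5.39, 5.50 and 5.22 with podofilox and 4.76, 4.81, 4.49 and 4.85 in control cells, a rise of 0.66 (SE 0.09, adjusted p = 0.000726 over all single-gene probe sets), the largest of any F-box ligase probe set. The 2 remaining probe sets of FBXW8 differed by -0.06 and -0.12. FBXW2 fell by 0.24 on its second probe set while the brightest, of the _s_at kind, differed by 0.03. FBXO45, which works with the ligase MYCBP2, rose by 0.24 on its dimmest probe set and differed by -0.01 on the brightest. FBXO25 was lower on all 4 of its probe sets, by 0.08 to 0.39, and 1 of them passed the test.

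**Figure D4:**
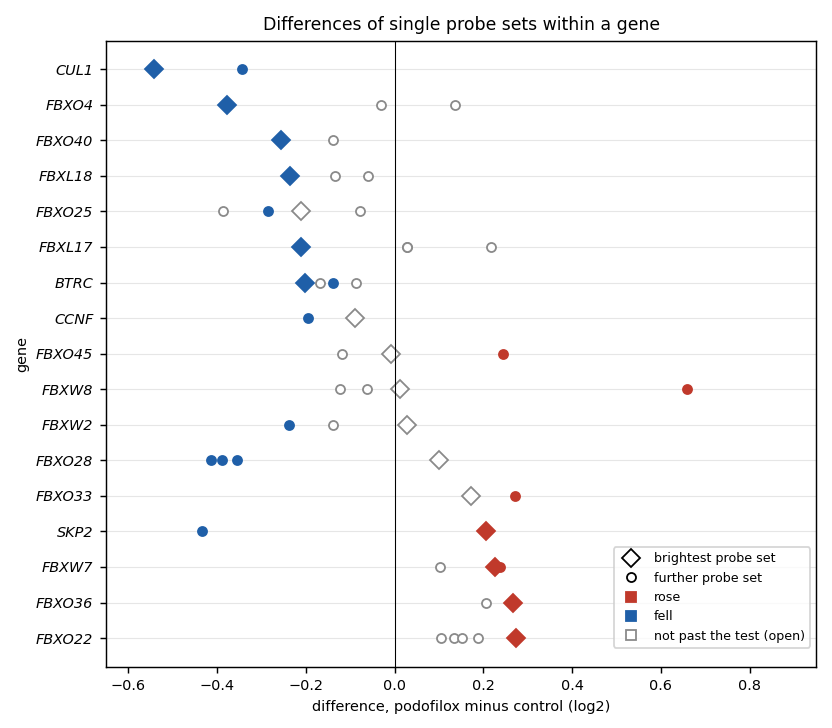
Difference (podofilox minus control, log2) of every probe set of the 11 changed genes with several probe sets and of the 6 genes called only on a further one; diamonds are the brightest probe set, circles the others, and filled symbols passed the test over all single-gene probe sets. SKP2 and FBXO28 lie on both sides of 0, and FBXO33 is open here on its brightest probe set because the adjustment covers all probe sets (adjusted p = 0.0515).

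The genes that run the ligases beside the F-box family were read from lists. Of 42 measured cullins, NEDD8 pathway genes, signalosome and CAND genes, conjugating partners and F-box genes under other names, 2 rose (4.76%, against 8.55% of all genes) and 7 fell (16.7%, against 12.5%). Together 21.4% of the 42 changed, against 21.0% of all genes. Most of the 42 lay above the median signal of all genes, and 33.9% of all genes above it changed. Of 8 genes for the other cullins and the RING protein RNF7, 0 rose and 2 fell. CUL4A, the scaffold of a ligase family with other receptors, fell by 0.32 (SE 0.05, adjusted p = 0.000946) and CUL9 by 0.23 (SE 0.05, adjusted p = 0.0106). Of 10 NEDD8 pathway genes, 0 rose and 2 fell. NAE1, a subunit of the enzyme that activates NEDD8, had 11.31, 11.30, 11.33 and 11.27 with podofilox and 11.56, 11.63, 11.54 and 11.53 in control cells, a fall of 0.26 (SE 0.04, adjusted p = 0.00159). UBE2F, which passes NEDD8 to the cullin CUL5, fell by 0.17 (SE 0.04, adjusted p = 0.0180).

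Of 12 genes of the COP9 signalosome, which removes NEDD8 from cullins, and the exchange factors CAND1 and CAND2, 0 rose and 2 fell. COPS6 fell by 0.21 (SE 0.04, adjusted p = 0.00359) and GPS1 by 0.19 (SE 0.05, adjusted p = 0.0218), and CAND1 differed by -0.06. Of 7 conjugating partners, ARIH1, a ligase that works on cullins carrying NEDD8, rose by 0.19 (SE 0.05, adjusted p = 0.0239) and 0 fell. Of 5 genes with an F-box motif under other symbols, LMO7 rose by 0.64 (SE 0.11, adjusted p = 0.00248) and the histone demethylase KDM2B fell by 0.33 (SE 0.04, adjusted p = 0.000426). LMO7 read 9.74, 9.87, 10.30 and 9.97 on podofilox arrays 1 to 4 and 9.43, 9.42, 9.23 and 9.28 on control arrays 1 to 4. Its rise was thus larger within arrays 3 and 4 than within arrays 1 and 2.

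Messenger RNAs of known substrates moved both ways. Of 34 measured, 8 rose (23.5%, against 8.55% of all genes) and 10 fell (29.4%, against 12.5%). Several of these genes were known to change in these data when the list was made, so the counts are no independent evidence. CCND1, cyclin D1, had 11.61, 11.67, 11.69 and 11.64 with podofilox and 12.10, 12.06, 12.06 and 12.05 in control cells, a fall of 0.42 (SE 0.04, adjusted p = 0.000119). WEE1, a kinase that holds back mitosis and a substrate of the beta-TrCP receptors, rose by 0.39 (SE 0.04, adjusted p = 0.000155), and CDKN1A, the inhibitor p21, by 0.45 (SE 0.05, adjusted p = 0.000157). The rises ran from 0.20 (CDKN1C) to 0.59 (BCL6), and the falls from -0.54 (CCNE2) to -0.14 (E2F1).

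Set beside their receptors, the substrates picked here did not form one pattern. They are only part of the 34 measured, and a receptor may have further substrates among the rest. For FBXW7, which rose, the mRNA of JUN and MCL1 rose by 0.36 and 0.37, that of CCNE1 fell by 0.24, and MYC (-0.10) and NOTCH1 (-0.04) did not pass the test. For the beta-TrCP receptors, WEE1 and SNAI1 rose by 0.39 and 0.36, CDC25A and CLSPN fell by 0.35 and 0.44, and CTNNB1 (0.05) and NFKBIA (0.06) did not pass the test. For SKP2, CDKN1B, the gene of p27, was 0.14 higher over all 8 arrays, short of the threshold. It read 10.31, 10.54, 10.84 and 10.77 on podofilox arrays 1 to 4 and 10.60, 10.62, 10.29 and 10.38 on control arrays 1 to 4. Podofilox was thus lower within arrays 1 and 2 and higher within arrays 3 and 4. All values of substrates here are of transcripts, and the amounts of protein on which the ligases act were not measured.

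The promoters of FBXO30 and CUL1, the genes with the lowest differences, and of FBXW4 are shown as RefSeq gives them for GRCh38.p14, from 250 bases before to 50 bases after the gene's start, 5′ to 3′ on the gene's strand. Capitals mark every match, on either strand, to 4 motifs: the E-box CACGTG bound by MYC and MAX, the E2F motif TTTNNCGC, the cyclic AMP response element TGACGTCA and the GC box GGGGCGGGG. The FBXO30 promoter lies at chr6:145814746-145815045 on the minus strand, the CUL1 promoter at chr7:148698653-148698952 on the plus strand and the FBXW4 promoter at chr10:101695121-101695420 on the minus strand.
FBXO30: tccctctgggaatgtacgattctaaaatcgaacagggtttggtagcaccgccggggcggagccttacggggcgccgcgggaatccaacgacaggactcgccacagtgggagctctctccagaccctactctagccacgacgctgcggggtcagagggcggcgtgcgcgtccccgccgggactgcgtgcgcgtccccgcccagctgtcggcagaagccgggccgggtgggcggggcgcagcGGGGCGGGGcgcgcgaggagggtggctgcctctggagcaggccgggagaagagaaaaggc
CUL1: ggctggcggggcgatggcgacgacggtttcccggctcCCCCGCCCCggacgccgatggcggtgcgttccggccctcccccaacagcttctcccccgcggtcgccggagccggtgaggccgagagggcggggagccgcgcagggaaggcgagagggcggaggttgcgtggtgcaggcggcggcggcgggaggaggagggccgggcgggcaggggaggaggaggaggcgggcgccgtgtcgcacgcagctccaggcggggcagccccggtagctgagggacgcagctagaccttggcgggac
FBXW4: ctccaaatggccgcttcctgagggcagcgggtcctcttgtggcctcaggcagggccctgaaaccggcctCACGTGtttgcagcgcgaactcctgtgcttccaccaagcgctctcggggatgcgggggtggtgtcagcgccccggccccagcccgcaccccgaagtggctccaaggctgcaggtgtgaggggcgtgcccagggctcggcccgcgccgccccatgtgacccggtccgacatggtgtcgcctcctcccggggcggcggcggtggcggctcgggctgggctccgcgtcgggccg
FBXO30 and CUL1 each hold 1 GC box and FBXW4 1 E-box, and no matches of different motifs overlapped. CUL1 has 5 listed starts, of which the window shown is the only one with a match. FBXW4 has a further listed start, whose window holds the same E-box. Among the changed genes searched, FBXW4 is the only one with an E-box, so its promoter is no typical example. Of the 52 F-box ligase genes with a promoter in the table, 12 hold a GC box (23.1%, against 18.5% of 27305 genes), 5 an E-box (9.62%, against 8.78%), 5 the E2F motif (9.62%, against 8.23%) and 2 the cyclic AMP element (3.85%, against 2.25%). Of the 10 changed genes among the 52, the GC box occurs in 4 (CUL1, FBXO30, FBXO36 and FBXW7), the E-box in 1 (FBXW4), and the other motifs in 0. A match describes letters in a window, and binding was not measured.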

How the data were processed

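AGS RNA was measured on 8 Affymetrix arrays, 4 per group. The authors deposited log2 values per probe set made with RMA, per the submitters' processing notes; software and options were not given in the sources used here. Deposited values run from 2.64 to 15.02, which fits that scale. The table has no detection calls. Of 49395 probe sets, 44988 named 1 gene in the platform annotation, and the brightest stood for each of 18132 genes. Of the 69 F-box ligase genes, 22 were represented by an _x_at or _s_at probe set, kinds that can bind several transcripts.

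Podofilox was compared with control by limma 3.58.1 (lmFit, eBayes, group as the only term, two-sided) in R 4.3.3, with Benjamini-Hochberg adjustment over all genes; single further probe sets were fitted over all single-gene probe sets. The script was tested on simulated data. Figures used matplotlib 3.10.9. Genes named in the text were all changed F-box ligase genes, SKP1, CUL1, RBX1, SKP2, FBXW7, BTRC, FBXW11, FBXL5, FBXO5 and CCNF, the lowest and highest mean, the 3 nearest the threshold on either side, and up to 3 changed genes per further list; other names were picked with their values in view. Genes and lists were chosen with earlier results of these data known. The alternatives were a dim-gene filter, 2 normalizations, a trend, array weights, blocks, array pairs, other probe set choices and each array left out.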

Additional observations from a re-analysis of the deposited data

Results flagged for a closer look

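Over the 64 genes named with values in the text, 6 of 128 groups of 4 arrays had 1 array far from the others, and chance flags about 1 in 20. FBXW9 read 7.02 on podofilox replicate 1, against 7.13 on each of the other podofilox arrays. WEE1 read 10.84 on podofilox replicate 2, where the others read 10.82. CCND1 read 12.10 on control replicate 1, with 12.05 to 12.06 on the other control arrays. CDH1, an epithelial marker, read 7.44 on podofilox replicate 4, against 7.54 to 7.55 on the other podofilox arrays, and 7.53 on control replicate 2, against 7.36 to 7.39 on the other control arrays. CDH5, an endothelial marker, read 4.85 on podofilox replicate 4, where the others read 4.78.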

How the results depend on the processing

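Of the 15 changed genes other than FBXO30, 7 (CUL1, FBXL6, FBXO22, FBXO36, FBXW4, FBXW7 and FBXW9) kept their direction and call under every alternative that used 7 or 8 arrays. FBXL6, FBXW4 and FBXW9 each have only 1 probe set, of the _a_at kind. The alternatives that changed the choice of probe set therefore read the same one and could not test these genes. The mean of all probe sets turned FBXL17 (0.016), FBXO28 (-0.26) and SKP2 (-0.11), and leaving out _x_at and _s_at probe sets turned FBXW2 (-0.24); each follows from which probe sets are read. Leaving out 1 array gave 4 to 8 F-box ligase genes that rose and 8 to 10 that fell (1059 to 1573 and 1647 to 2145 of all genes). Array weights gave 10 that rose, with 2406 of all genes rising. Arrays 1 and 2 alone gave 1 that rose and 2 that fell, with 468 and 542 of all genes and 6 and 4 of the 76 further pathway genes; arrays 3 and 4 alone gave 4 and 5, with 905 and 1395 of all genes, and 9 further pathway genes rose and 7 fell, against 10 and 17 on all arrays. These use fewer samples. With the replicate number as a block, 5 rose and 8 fell (1116 and 1625 of all genes). After each gene's group mean was subtracted, podofilox and control arrays of the same number correlated at -0.13, 0.09, -0.24 and 0.06. The numbers were therefore not taken as pairs. Testing every single-gene probe set was added after seeing the data. Dim probe sets and 4 arrays a group limit the precision.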
